A study of Mus musculus with 2 samples.

Results

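The nuclear-encoded subunits of the mitochondrial respiratory chain and of ATP synthase were measured in a mouse embryonic stem (ES) cell line that carries a deletion of 1.3 Mb in the Williams-Beuren syndrome (WBS) region, labelled Del1.3MbWBS. The members were all probe sets assigned to a single gene whose symbol starts with Nduf (numbered A, B, C, S and V subunits), Sdh (A to D), Uqcr, Cox4 to Cox8, or Atp5. The rule found 163 of 45101 probe sets, which stand for 80 of 18194 named genes. These were 34 genes of complex I, 4 of complex II, 8 of complex III, 17 of complex IV and 17 of ATP synthase. Total RNA was hybridised to 2 Affymetrix expression arrays, labelled as biological replicates of the 1 group. Both came from LIF-containing medium with 20% serum replacement and from cultures grown on feeder cells, and the line is 1 line. The labels do not say whether the replicates were separate cultures, so the spread between them may be technical. Control cells that keep the segment were not analysed here, so nothing below compares genotypes, and no test was possible.

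Complex I oxidises NADH and complex II oxidises succinate; both pass electrons through ubiquinone to complex III, and cytochrome c carries them on to complex IV, which reduces oxygen. ATP synthase uses the resulting proton gradient to make ATP. The catalytic centres of complexes III and IV lie partly or wholly on mitochondrially encoded subunits, whereas the genes described here are nuclear. Several complex IV subunits exist as a broadly expressed isoform and as others known from heart and skeletal muscle, lung or testis. Pluripotent cells make much of their ATP by glycolysis but keep these complexes.

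Values are log2 values from RMA (robust multi-array average), which the authors deposited, and each gene is given by its brightest probe set as replicate 1 and replicate 2. Above background means that the mean and both single values exceeded the 95th percentile over 38 genes for olfactory receptors, which ES cells are not known to express. That percentile was 5.59 for the mean, 5.60 on replicate 1 and 5.58 on replicate 2. Because affinity varies between probes, genes were not ranked by level. The 2 arrays had medians of 6.01 and 6.01, which RMA makes nearly equal by its normalization, so they do not measure agreement. All 10 ES cell markers were above background, beside 68.4% of all named genes. So were all 11 measured fibroblast markers, with means from 8.92 to 14.87. The values therefore describe RNA of the whole culture, in which fewer cells of a type and less RNA per cell cannot be told apart. Of 5 measured blood cell markers, 3 were above background, with means of 9.33 for Lyz2, 6.73 for Csf1r and 6.56 for Cd3e. Ptprc (4.05) and Itgam (3.92) were not, and the part of blood cells was not tested.

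Of the 80 genes, 78 were above background on both arrays, where 68.4% of all named genes were. The counts were 33 of 34 in complex I, 4 of 4 in complex II, 8 of 8 in complex III, 16 of 17 in complex IV and 17 of 17 in ATP synthase. Of the 78, 71 had means more than 3 log2 units above the threshold, a distance reached by 48.8% of all genes above background. The other 7 were the complex I subunit Ndufb1 and the complex IV genes Cox4i2, Cox6a2, Cox7a1, Cox7b2, Cox7c and Cox8c. All of these but Ndufb1 and Cox7c are isoforms known from particular tissues. Ndufb4 and Cox8b were the 2 genes not above background. For Ndufb4 this holds for its 1 probe set under the rule, since 2 others that it shares with Ndufb4b and Ndufb4c had means of 11.88 and 11.79.

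**Figure D1:**
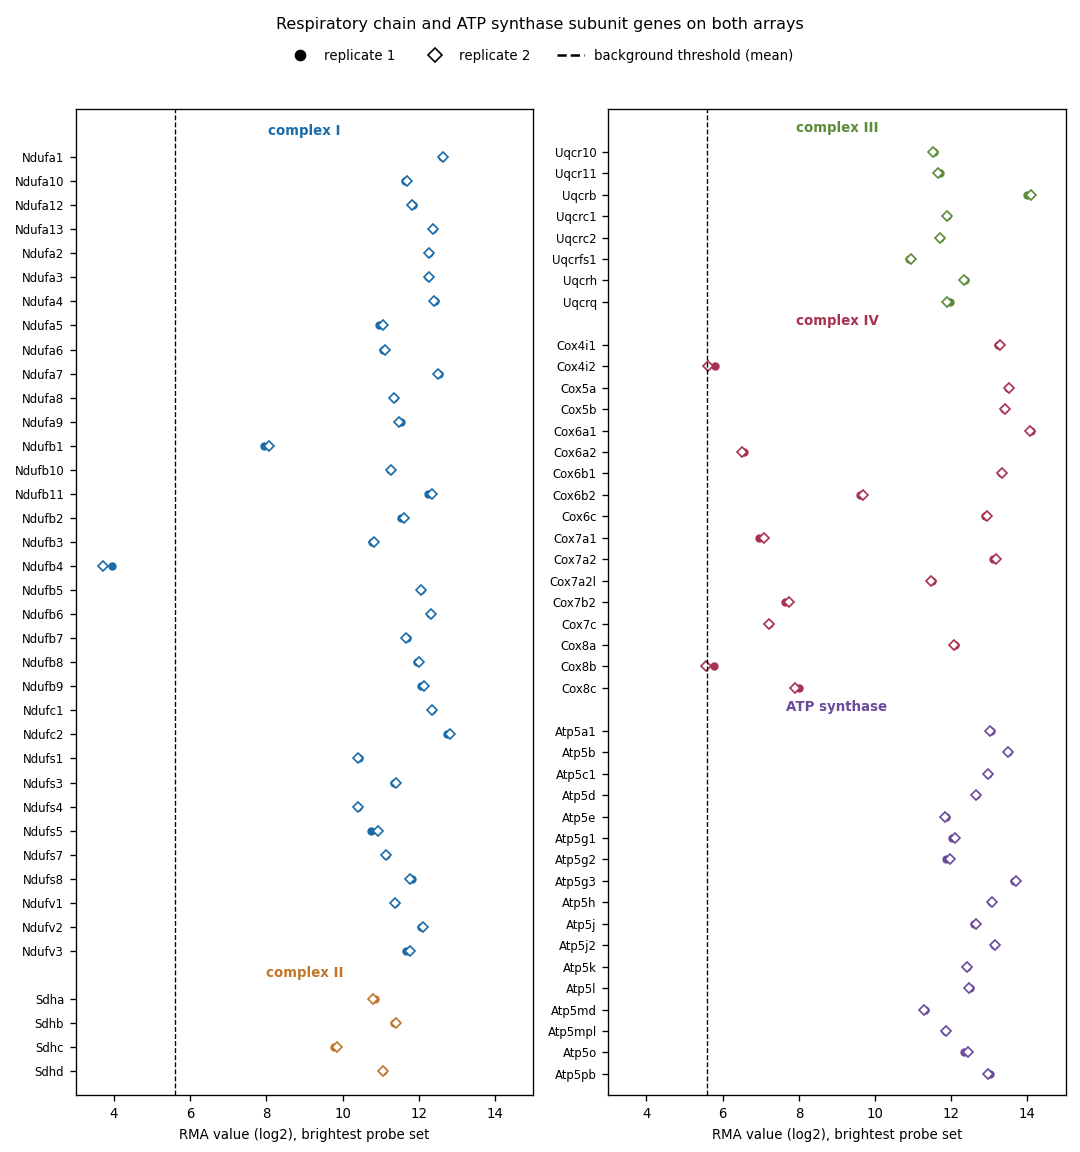
RMA value (log2) of the brightest probe set of each of the 80 genes, by complex, on replicate 1 (filled circles) and replicate 2 (open diamonds). The dashed line is the background threshold of 5.59. Ndufb4 lies left of it on both arrays, and Cox8b and Cox4i2 lie beside it.

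Promoters of 66 of the 80 genes were in the RefSeq table of the mouse build GRCm38.p6, as 71 windows of 300 bases, from 250 before to 50 after an annotated start. The genes Atp5a1, Atp5mpl, Cox4i1, Cox4i2, Cox6a2, Cox6c, Cox8c, Ndufa2, Ndufb9, Ndufs1, Sdhc, Uqcrb, Uqcrc2 and Uqcrq had no entry. Below are 5 windows of complex IV genes. They set tissue forms beside broadly expressed ones, except Cox6a1, whose tissue form Cox6a2 had no entry. Cox6b2 (testis) and Cox6b1 (broad) were both above background, Cox8b (heart and muscle) was not while Cox8a (broad) was, and Cox6a1 (broad) holds both a nuclear respiratory factor 1 (NRF1) and an ETS motif. Capitals mark motif matches on either strand, and each line runs 5′ to 3′ on the strand of its gene, here always the minus strand.
Cox6b2, chr7:4753045-4753344: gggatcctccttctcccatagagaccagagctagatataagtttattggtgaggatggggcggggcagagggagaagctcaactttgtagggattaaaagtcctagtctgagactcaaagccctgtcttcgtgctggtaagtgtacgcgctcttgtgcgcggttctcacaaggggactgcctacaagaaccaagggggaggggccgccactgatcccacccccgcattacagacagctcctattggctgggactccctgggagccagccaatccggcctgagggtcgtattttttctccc
Cox6b1, chr7:30626065-30626364: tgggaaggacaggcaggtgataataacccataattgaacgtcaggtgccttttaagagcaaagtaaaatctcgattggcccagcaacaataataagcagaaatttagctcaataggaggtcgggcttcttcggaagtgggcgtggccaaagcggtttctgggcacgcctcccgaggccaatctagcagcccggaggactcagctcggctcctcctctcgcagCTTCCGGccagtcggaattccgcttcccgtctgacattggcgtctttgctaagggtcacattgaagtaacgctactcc
Cox8b, chr7:140900397-140900696: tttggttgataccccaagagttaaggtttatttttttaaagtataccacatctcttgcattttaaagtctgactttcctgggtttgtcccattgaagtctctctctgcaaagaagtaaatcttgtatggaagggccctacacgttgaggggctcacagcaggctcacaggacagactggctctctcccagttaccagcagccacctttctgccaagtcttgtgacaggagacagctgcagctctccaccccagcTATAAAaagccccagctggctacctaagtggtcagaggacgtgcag
Cox8a, chr19:7217567-7217866: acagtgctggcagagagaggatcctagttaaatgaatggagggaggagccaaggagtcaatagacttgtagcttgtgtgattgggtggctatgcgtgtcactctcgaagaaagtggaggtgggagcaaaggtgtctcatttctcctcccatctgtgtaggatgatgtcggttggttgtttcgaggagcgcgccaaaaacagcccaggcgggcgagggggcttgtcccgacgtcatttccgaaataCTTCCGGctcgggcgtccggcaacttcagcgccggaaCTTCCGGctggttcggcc
Cox6a1, chr5:115348909-115349208: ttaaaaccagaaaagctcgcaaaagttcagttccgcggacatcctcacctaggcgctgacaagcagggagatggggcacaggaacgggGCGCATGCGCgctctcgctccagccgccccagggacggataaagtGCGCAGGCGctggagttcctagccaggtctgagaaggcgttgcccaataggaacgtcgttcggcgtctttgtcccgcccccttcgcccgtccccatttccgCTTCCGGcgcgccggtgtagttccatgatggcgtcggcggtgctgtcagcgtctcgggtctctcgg
The capitals in Cox6b1 are an ETS match at positions -28 to -22 from the start, and those in Cox8a are ETS matches at positions -5 to 2 and 33 to 39. In Cox6a1 the NRF1 matches lie at -162 to -154, at -161 to -153 on the opposite strand, and at -117 to -109, and the ETS match at -16 to -10. In Cox8b they mark TATAAA at positions 5 to 10. In the Cox6b2 window none of the motifs searched was found, which says only that these letters are not in it. The printed windows do not stand for all isoform sets. Those of the broad forms Cox7a2 and Cox7b also held none of the motifs, while that of the testis form Slc25a31 held an NRF1 match.

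Motifs were searched on both strands. NRF1 and GA-binding protein, an ETS factor, are known activators of respiratory chain genes, and YY1 is another. The NRF1 motif GCGCANGCG was in 19 of the 71 windows (26.8%), against 6.25% of all 32851 windows and 12.5% of 12809 windows of genes above background. Its strict form GCGCATGCG, which the freer letters include, was in 7 windows (9.86%), of Atp5g2, Atp5k, Atp5l, Cox6a1, Ndufa8, Uqcr11 and Uqcrc1, against 1.75% of all and 3.37% of those of genes above background. The ETS motif CCGGAAG was in 17 windows (23.9%), against 8.86% of all and 16.4% of those of genes above background. The YY1 motif AAGATGGCG was in 6 windows (8.45%), of Atp5j, Atp5j2, Ndufa9, Ndufc1, Ndufs4 and Ndufs7, against 1.40% of all and 2.79% of those of genes above background. The NRF1 and YY1 letters above are shortened forms, chosen after the results of the longer motifs of the design had been seen. The longer NRF1 motif with 1 free base was in 16 windows (22.5%), against 4.60% of all and 9.40% of those of genes above background. Its palindrome was in 4 windows (5.63%), against 0.971% of all and 1.91% of those of genes above background. The longer YY1 motif was in 3 windows (4.23%), against 0.633% of all and 1.39% of those of genes above background. TATAAA, added after seeing the data, was in 9 windows (12.7%), against 13.6% of all and 7.49% of those of genes above background. A match is a description of the sequence, and binding was not measured.

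The windows of the genes held a median of 19 CpG dinucleotides, against 7 over all windows and 20 over those of genes above background. Among isoforms the counts were 10 for Cox6b2 and 17 for Cox6b1, 2 for Cox8b and 19 for Cox8a, and 7 for Cox7a1 and 20 for Cox7a2. Cox7b2 had 10 and its broad partner Cox7b had 5, so the tissue isoform did not have the lower count in every set.

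In complex I the 6 core subunits measured here were above background. Ndufv1, which binds NADH and the flavin, was at 11.37 and 11.38, and its iron-sulphur partner Ndufv2 was at 12.05 and 12.12. Ndufs1, the large iron-sulphur subunit of the same module, was at 10.42 and 10.40. Towards the membrane, the core subunit Ndufs3 was at 11.36 and 11.40, Ndufs7, which holds the last iron-sulphur cluster before ubiquinone, was at 11.13 and 11.14, and Ndufs8, its iron-sulphur neighbour, was at 11.82 and 11.76. On each of these subunits the arrays lay within 0.066 log2 units of each other.

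The accessory subunits of complex I surround that core and are needed for its assembly or stability. The X-linked subunits Ndufa1 and Ndufb11 were at 12.60 and 12.65 and at 12.25 and 12.35. Ndufs4, whose loss causes a Leigh-like encephalopathy in mice, was at 10.41 and 10.41. Ndufb1, a small membrane subunit measured by 1 probe set, was at 7.93 and 8.07. Ndufb4, another membrane-arm subunit, was at 3.95 and 3.71 on 1 probe set, below the threshold on both arrays. The probe sets assigned to it together with Ndufb4b and Ndufb4c, outside the rule, were at 11.89 and 11.87 and at 11.77 and 11.81, far above the threshold. Whether Ndufb4 itself gives that signal was not tested. Ndufa4, long listed with complex I and now assigned to complex IV, was at 12.44 and 12.41.

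Complex II, which is also an enzyme of the citric acid cycle, was above background in all 4 subunits. The flavoprotein Sdha was at 10.86 and 10.80, the iron-sulphur subunit Sdhb at 11.35 and 11.40, and the membrane anchors Sdhc and Sdhd at 9.77 and 9.85 and at 11.07 and 11.07. In complex III the core proteins Uqcrc1 and Uqcrc2 were at 11.90 and 11.88 and at 11.70 and 11.71. Uqcrfs1, the Rieske iron-sulphur protein, was at 10.89 and 10.94. The small subunits Uqcr10, Uqcr11, Uqcrb, Uqcrh and Uqcrq had means from 11.54 to 14.04. Uqcrq, at 11.96 and 11.90, rests on 1 of 4 probe sets: the brightest had a mean of 11.93, and the other three lay between 5.54 and 5.90, on both sides of the threshold.

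In complex IV the broadly expressed subunits were above background. Cox4i1, the broad form of the largest nuclear subunit, was at 13.24 and 13.27. Cox5a and Cox5b, on the matrix side, were at 13.49 and 13.50 and at 13.37 and 13.41, and Cox6c, a membrane subunit, was at 12.89 and 12.94. Cox7c, a small membrane subunit with no tissue form among these genes, was at 7.22 and 7.21 on a shared probe set and had a mean of 5.85 on the other.

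The isoform sets held 17 members and 6 genes outside the rule. Of these 23 genes with a value, 22 were above background, beside 68.4% of all named genes. In the COX4 set, Cox4i2, known from lung and induced by low oxygen, was at 5.80 and 5.60, by 0.11 log2 units above the threshold in the mean. In the COX6A set, Cox6a2, the heart and skeletal muscle form, was at 6.57 and 6.51, and the broad form Cox6a1 was at 14.10 and 14.06. Cox6a2 has a second probe set with a mean of 3.88, and with the median of both it was not above background (5.21).

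The testis forms were above background in each set that has one. Cox6b2, which replaces Cox6b1 in sperm, was at 9.61 and 9.69, over 4 log2 units above the threshold, and Cox6b1 was at 13.31 and 13.32. Cox7b2 was at 7.64 and 7.75; its partner Cox7b was not analysed here. Cox8c was at 7.99 and 7.90, and its second probe set had a mean of 5.95. Outside the rule, Cyct, the testis form of cytochrome c, was at 7.88 and 8.10 beside the somatic form Cycs at 12.80 and 12.85. Slc25a31, the ADP/ATP carrier of testis, was at 8.54 and 8.53. Of 10 other testis markers, 3 were above background, beside 68.4% of all named genes. Their means were 7.07 for Prm1, 6.25 for Ldhc and 6.03 for Gapdhs. The protamine gene Prm2, at 5.18, and the transition protein genes Tnp1, at 3.87, and Tnp2, at 3.81, were not above background. Neither were Pgk2 (3.65), Odf1 (4.67), Acrv1 (4.32) and Spata19 (3.93). The part of germ cell transcripts in these values was not tested.

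Of the other heart and muscle forms, 1 was above background and 1 was not. Cox7a1, that form of COX7A, was at 6.97 and 7.08, by 1.43 log2 units above the threshold in the mean, and the broad form Cox7a2 was at 13.10 and 13.17. Cox7a2l, a related protein that joins complexes III and IV into supercomplexes, was at 11.50 and 11.47. Cox8b was at 5.78 and 5.56, above the threshold on replicate 1 only, and the broad form Cox8a was at 12.08 and 12.08. The gene just inside the threshold was Cox4i2, with a mean of 5.70, and the one just outside was Cox8b, with a mean of 5.67. These 2 means differ by less than the SDs of 0.14 and 0.15 (n = 2), so the calls do not separate the genes.

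Of 14 muscle markers, 6 were above background, beside 68.4% of all named genes. They were Ckm, Mb, Myh7, Actn2, Ttn and Actc1, with means up to 7.10. The muscle regulators Myod1 (4.67), Myog (4.73) and Myf5 (2.97) were not above background. Neither were Ckmt2 (3.61), Myh6 (4.63), Myl2 (4.71), Tnni3 (5.05) and Tnnt2 (3.84). Ndufa4l2, a form of Ndufa4 induced by low oxygen, was at 6.61 and 6.58. Cox4i2 and Ndufa4l2 are known from pericytes and smooth muscle. Of 10 markers of these cells, 8 were above background, beside 68.4% of all named genes. Their means were 14.30 for Acta2, 12.16 for Pdgfrb, 10.96 for Cnn1, 8.75 for Notch3 and 8.68 for Cspg4. Des, Rgs5 and Myh11 were lower, with means of 7.23, 7.16 and 7.01. The defining pericyte channel genes Kcnj8 (4.93) and Abcc9 (4.59) were not above background. The part of these cell types in the isoform values was not tested.

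**Figure D2:**
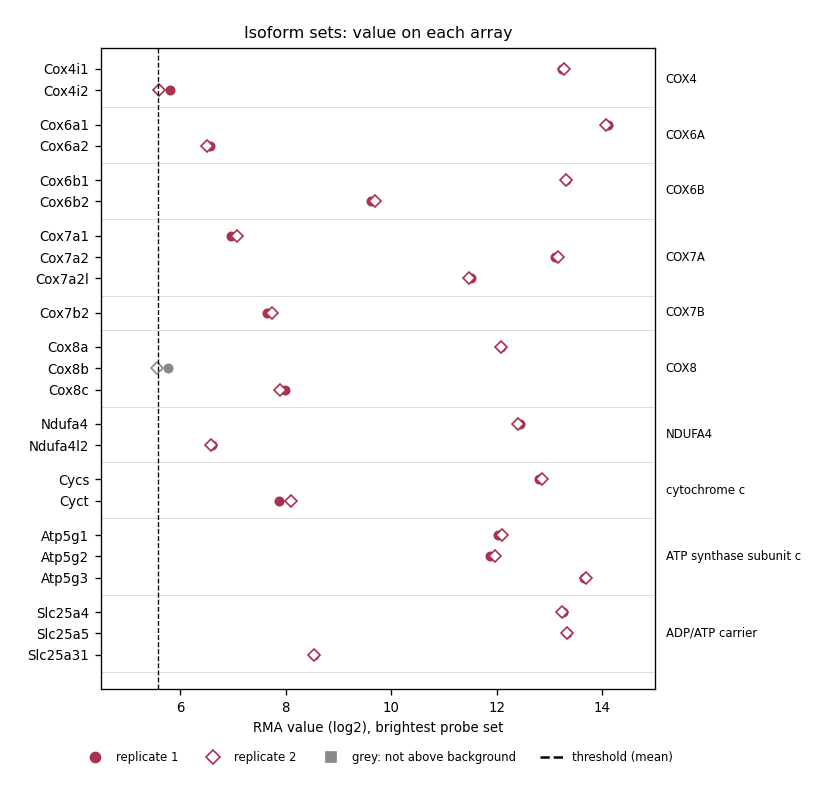
RMA value (log2) of the brightest probe set of each isoform gene on replicate 1 (filled circles) and replicate 2 (open diamonds), grouped by isoform set. Cox8b, in grey, was not above background, while the testis forms Cox6b2, Cox7b2 and Cox8c lay more than 2 log2 units above the threshold of 5.59.

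ATP synthase was above background in all 17 genes. In its catalytic head the alpha subunit Atp5a1 was at 13.04 and 13.01 and the beta subunit Atp5b, which holds the catalytic sites, was at 13.49 and 13.48. In the central stalk, gamma (Atp5c1) was at 12.95 and 12.96, delta (Atp5d) at 12.66 and 12.64, and epsilon (Atp5e) at 11.87 and 11.84. The 3 genes of subunit c, whose ring turns with the proton flow, encode the same mature protein behind different import sequences. Atp5g1 was at 12.02 and 12.09, Atp5g2 at 11.87 and 11.96, and Atp5g3 at 13.65 and 13.69. The first of these rests on a shared probe set, since its unshared one had a mean of 4.23 and was not above background; for Atp5g2 the median of 3 probe sets was 5.36, also not above it.

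The peripheral stalk, which keeps the head from turning, was at 13.01 and 12.97 for Atp5pb, 13.04 and 13.06 for Atp5h, 12.61 and 12.66 for Atp5j, and 12.33 and 12.43 for Atp5o. The membrane subunits Atp5j2, Atp5k, Atp5l, Atp5md and Atp5mpl, several of which hold enzyme dimers together, had means from 11.29 to 13.13.

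Some genes had probe sets on both sides of the threshold. Of the 163 probe sets, 147 were above background, where 61.8% of all probe sets with 1 gene were. Of the 48 genes with several probe sets, 12 had some above and some not, where 43.5% of all such genes did. Cox5b spanned the widest range, with means from 4.38 to 13.39 over 6 probe sets, and Sdha had means of 3.71, 4.49, 10.34 and 10.83. Of the 83 probe sets with a suffix that marks shared transcripts or genes (_a_at, _s_at or _x_at), 81 were above background, and of the 80 others 66 were. The shares by suffix over all genes were not computed, so whether this split is particular to these genes was not tested.

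These 12 genes were Ndufa12, Ndufa3, Ndufb9, Ndufc2, Ndufs4, Sdha, Uqcrq, Cox5b, Cox6a2, Cox8a, Atp5g1 and Atp5g2. Of their probe sets, 5 of 6 were above background in Cox5b, 3 of 4 in Ndufa12, Ndufc2, Ndufs4 and Uqcrq, 2 of 3 in Ndufa3, Ndufb9 and Cox8a, 2 of 4 in Sdha, 1 of 2 in Cox6a2 and Atp5g1, and 1 of 3 in Atp5g2. With the median over a gene's probe sets, Cox6a2 and Atp5g2 were not above background and the other 10 were. Ndufa12 was at 11.85 and 11.83, Ndufa3 at 12.23 and 12.26, Ndufb9 at 12.07 and 12.15, and Ndufc2 at 12.75 and 12.81 on the brightest probe set, and all 4 are accessory subunits of complex I. The lowest probe set of the gene had a mean of 5.23 in Ndufa12, 5.12 in Ndufa3, 5.27 in Ndufb9, 4.90 in Ndufc2, 5.14 in Ndufs4, 5.14 in Cox8a and 3.08 in Atp5g2. For 16 genes, Cox4i1, Cox6a1 and Ndufs1 among them, every probe set was a shared one. In the reference gene table, 9 of the 80 genes have pseudogenes named after them, 14 in all, with 4 for Atp5k, 2 for Atp5l and 2 for Uqcrh. Values of these genes are uncertain, since probes may bind transcripts of such copies.

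**Figure D3:**
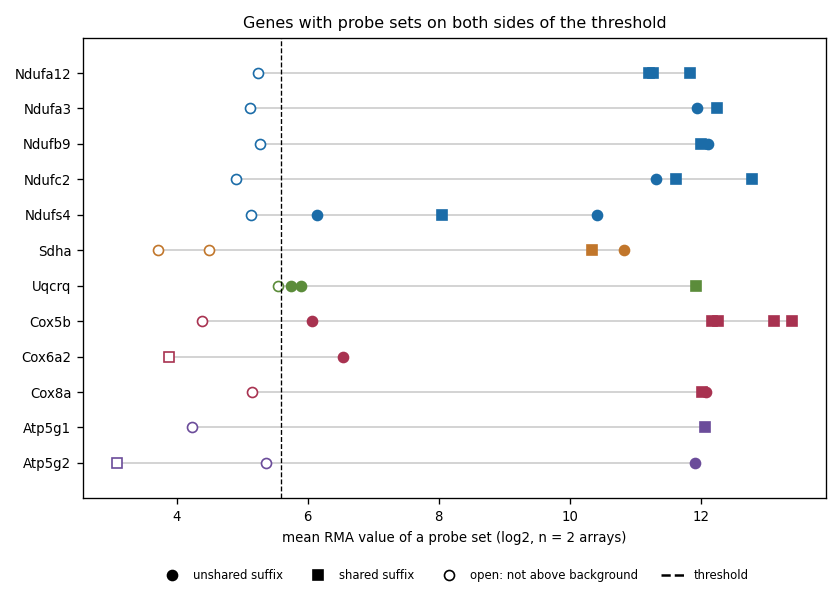
Mean RMA value (log2, n = 2 arrays) of every probe set of the 12 genes that had probe sets on both sides of the threshold of 5.59 (dashed line). Filled symbols were above background and open ones were not; squares carry a shared suffix. Cox5b runs from 4.38 to 13.39.

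The replicates were close. No member above background differed by 1 log2 unit or more, where 0% of all genes above background did, and none by 1.5-fold, where 0.0241% did. The difference, replicate 2 minus replicate 1, had an SD of 0.0581 log2 units over the 78 members and of 0.106 over the 12437 genes above background. These SDs were not matched by level. Of the 78 members, 71 lay more than 3 log2 units above the threshold, against 48.8% of all genes above background. The median difference was 0.015 over the members and 0.015 over all genes above background. Of the members, 46 of 78 were higher on replicate 2, beside 57% of all genes above background. By complex, the medians were 0.039 for complex I, 0.027 for complex II, -0.011 for complex III, 0.013 for complex IV and 0.011 for ATP synthase. In complex I, 22 of 33 genes above background were higher on replicate 2. The SD of the difference over the genes of a complex ran from 0.0442 to 0.0801.

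The 5 largest differences were in Ndufb4 (-0.24), Cox8b (-0.22), Cox4i2 (-0.20), Ndufs5 (0.17) and Ndufb1 (0.14). The first 3 of these had means of 3.83, 5.67 and 5.70, at or below the threshold region. Ndufs5, an accessory subunit of complex I, was at 10.76 and 10.92 and has a named pseudogene.

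**Figure D4:**
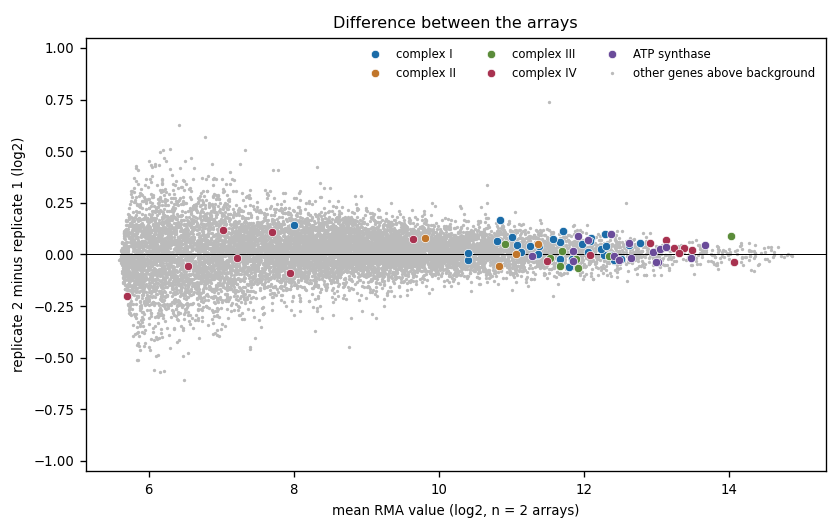
Replicate 2 minus replicate 1 (log2) against the mean RMA value (log2, n = 2 arrays) for the members above background, coloured by complex, and for all other genes above background in grey. The members lie between -0.20 and 0.17.

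Other genes of the pathway were largely above background too: 67 of 70 outside the rule were, beside 68.4% of all named genes. They are subunits and electron carriers, assembly factors, regulators, and mitochondrial carriers and uncoupling proteins. Of the carriers and subunits named otherwise, Ndufab1, the acyl carrier of complex I, was at 12.47 and 12.58, Cyc1, cytochrome c1 of complex III, at 12.38 and 12.40, and Atpif1, which inhibits ATP synthase when it runs in reverse, at 12.06 and 12.14. Of 42 assembly factors, 41 were above background. For complex I, Ndufaf1 was at 9.68 and 9.71, Ndufaf2 at 9.04 and 9.19, and Ndufaf3 at 8.92 and 8.94, and all 13 passed. For complex II, Sdhaf1 was at 8.38 and 8.43, Sdhaf2, which adds the flavin to Sdha, at 9.50 and 9.52, and Sdhaf3 at 8.23 and 8.32.

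For complex III, Bcs1l, which inserts the Rieske protein, was at 8.54 and 8.49, Ttc19 at 8.66 and 8.63, and Uqcc1 at 7.63 and 7.68. Lyrm7, a chaperone of the Rieske protein, was the one factor not above background, at 4.23 and 4.14. For complex IV, where all 16 passed, Surf1 was at 9.65 and 9.71, and the copper chaperones Sco1 and Sco2 were at 6.68 and 6.62 and at 8.62 and 8.57. The ATP synthase factors Atpaf1, Atpaf2 and Tmem70 were at 9.24 and 9.25, at 8.58 and 8.51, and at 9.66 and 9.75.

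Of 13 regulators of respiratory genes, 12 were above background, beside 68.4% of all named genes. The factors of the motifs above were at 8.88 and 8.93 for Nrf1 and at 11.64 and 11.63 for Yy1. Gabpa was at 10.63 and 10.58, and its partner Gabpb1 at 7.75 and 7.97. Ppargc1a, an inducible coactivator of mitochondrial biogenesis in muscle and brown fat, was not, at 4.26 and 4.21. Its relatives Ppargc1b, at 6.87 and 6.91, and Pprc1, at 10.04 and 9.98, were above background. Of 9 carriers, channels and uncoupling proteins, 8 were above background, beside the same share of all named genes. Among them was the phosphate carrier Slc25a3 at 13.64 and 13.63. The ADP/ATP carriers Slc25a4, at 13.26 and 13.23, and Slc25a5, at 13.32 and 13.33, were others. Slc25a4 rests on shared probe sets, as its unshared ones gave 5.28, not above background. Ucp1, the uncoupling protein of brown fat, was not, at 4.34 and 4.12.

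The 80 genes lie on 19 chromosomes of the reference gene table, with at most 8 on 1 chromosome, and no 2 of them are neighbours among protein-coding genes. Of the 4 on chromosome 5 (Atp5j2, Atp5k, Cox6a1 and Cox7b2), 0 lie between Gtf2i and Fkbp6, the interval of the WBS segment in that table. The labels do not say which genes are within the deletion.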

How the data were processed

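The authors deposited log2 values that they made with RMA, per the submitters' processing notes; its version is not given in the sources used here. RMA corrects background, quantile-normalizes over arrays and summarises probes, which hides any shift common to most genes, and gives no detection call. Columns not used numbered 0. Precision is limited by the number of arrays (2).

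Names came from the platform annotation, which gives 1 symbol to 34958 of 45101 probe sets, several to 932 (not named here) and none to 9211. All 80 member symbols equalled the reference symbol of their gene identifier. The brightest probe set stood for a gene. The difference was replicate 2 minus replicate 1. The rules were run on simulated data, with silent genes drawn from the olfactory receptor values and expressed genes placed well above the threshold. That run checks the code and says nothing about genes near the threshold. Alternatives were the 99th and 90th percentiles, 37 vomeronasal and taste receptor genes, the median of all probe sets, unshared probe sets, each array alone, 1.5-fold, loess (fraction 0.3) and centring on the median. Python 3.11.15, pandas 2.3.3 and statsmodels 0.14.6 were used.

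The members, the 14 gene lists (138 entries, of which 6 had no value and 2 were themselves members) and the tests were chosen with earlier results of these data known. The rule for named genes gave values for isoform sets, core subunits, members not above background, the 5 largest differences, members with probe sets on both sides of the threshold, and of each other pathway list the first 3 above background and every gene not above it. The design set longer NRF1 and YY1 motifs, whose shares are given by name; their 9-letter forms stand in for them where letters are printed and were adopted after the longer motifs' results had been seen. These forms and TATAAA were chosen after their values were seen. So were the genes named beyond the rule: Ndufa1, Ndufb11, Cox6c, Cox7c, the peripheral stalk, Atpif1, Yy1, Ppargc1b, Pprc1 and the markers.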

Additional observations from a re-analysis of the deposited data

Results flagged for a closer look

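Outside the rule, 9 probe sets were assigned to several genes of which 1 matches it. Of these, 8 were above background, where 61.8% of all probe sets with 1 gene were. All 9 were set aside because their values cannot be given to 1 gene, and they are the signal outside the measured members. Their means ran from 4.18 to 12.01.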

How the results depend on the processing

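None of the 29 alternative values of the main results moved out of its range. The range was 1.5 times for a count and the typical SD between arrays of 0.0272 for the median difference. For a share of windows it was the 95% exact binomial interval, which treats windows as independent. Counts of genes above background were close to their totals and could hardly leave such a range, so this says little about them. The SD used for the median difference is that of single genes, which is a loose range for a median over many genes. The count of members above background was 77 of 80 with the 99th percentile and with vomeronasal and taste receptor genes, which dropped Cox4i2, and 79 with the 90th percentile, which added Cox8b. Taking the median over a gene's probe sets gave 77, where Atp5g2, Cox6a2 and Ndufb4 were not above background and Cox8b was. With unshared probe sets it was 61 of the 64 genes still measured, without Atp5g1, Ndufa12 and Ndufb4. Each array alone gave 78 to 79. The median difference of the members was 0.0067 after loess and 0.039 with unshared probe sets. Over all genes above background it was 0.00056 and 0.013, so under these settings members and all genes did not share a median as in the main result. After centring, members and all genes both had 0.016. When each gene was given the median of its probe sets, the members had 0.017 and all genes 0.014. The share of windows with the NRF1 motif was 22.5% with the design's letters and 26.8% with 9 letters. With the YY1 motif it was 4.23% and 8.45%. A shortened motif can only match as many windows or more, so these shares could not fall. Of 43 alternative isoform levels, 18 moved by more than their SD, all through another choice of probe set. The rest equalled the main value because they rest on the same probe set and could not move. Every isoform level that could move therefore did. Signal over background limits Cox4i2 and Cox8b, where weak and absent transcripts cannot be separated. No paired analysis was possible because the series has 1 group only.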
